A study of Rattus norvegicus with 36 samples.

Results

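A set of 10 early response genes was followed over every array of a knockdown study in CG-4 cells, a rat line of oligodendrocyte progenitor cells. They are the zinc-finger transcription factor genes Egr1, Egr2, Egr3 and Egr4, the AP-1 subunit genes Fos, Fosb and Junb, the nuclear protein gene Ier2, the MAP kinase phosphatase gene Dusp1, and Arc, whose product acts at synapses. They were chosen by symbol, and each of the 10 had 1 transcript cluster among the 18901 clusters of the gene-level table, which carry 13206 symbols. No member was missing, and all 10 had a mean above the 25th percentile of cluster means, used in an alternative as a filter on low values.

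Immediate early genes are transcribed within minutes of a growth factor, calcium or stress signal, without new protein synthesis. ERK and other MAP kinases activate ternary complex factors that sit with SRF on CArG boxes, and CREB acts on cyclic AMP response elements of many of the same promoters. The Egr and AP-1 proteins then act on later genes, whereas Dusp1 removes phosphate from MAP kinases and limits the signal. In the oligodendrocyte lineage such genes are known to respond to mitogens, the kind of factor that keeps progenitors dividing.

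All cells grew in medium conditioned by the B104 neuroblastoma line. One group was untreated. Another 3 groups received a transient siRNA, against QKI (an RNA-binding protein of the oligodendrocyte lineage), against hnRNP A1 (a splicing repressor) or without a target. The remaining 2 groups were stable lines with a short hairpin RNA against QKI or without a target, and the labels do not say whether a line is 1 clone or a pool. Each of the 6 groups had 3 arrays, which the labels call biological replicates without naming separate cultures, so that p-values measure the spread between these arrays, which may be technical. The labels name transfection with a lipid reagent for every sample, those of the untreated cells included.

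All values are deposited log2 intensities, and a change of 1 is a doubling. Progenitor markers were present, with mean log2 intensities of 11.05 for Ptprz1, 9.68 for Sox10 and 9.38 for Olig1, but Cspg4 stayed between 3.34 and 3.92, below or near the array medians of 3.77 to 4.18. All 6 microglial markers had means of at most 3.71, and the mean of the microglial list was 3.31 to 3.64 on the 18 arrays. The targeted genes check the labels. Qki was 9.99, 10.02 and 9.67 after QKI siRNA and 11.47, 11.39 and 11.14 after non-silencing siRNA. This change of -1.44 ± 0.22 did not pass (adjusted p = 0.179 in limma), although the groups did not overlap. In the stable lines Qki was 10.65, 10.35 and 11.14 against 10.90, 11.01 and 10.99. That change of -0.25 ± 0.22 did not pass either (adjusted p = 0.656), and the array labelled QKI shRNA 3 lay above all 3 controls. A lower Qki was thus not shown in that line, so the stable lines are named by their labels throughout, and no direction between them is shown to go with a lower Qki. Hnrnpa1 was 7.90, 7.85 and 7.65 after its siRNA and 8.60, 8.47 and 8.44 after non-silencing siRNA. Its change of -0.70 ± 0.19 did not pass (adjusted p = 0.393 in limma), although the groups did not overlap. The siRNA groups are likewise named by their labels. With each cluster centred on its mean, 9 of the 18 arrays correlated best with an array of another group. Untreated array 3 and the array labelled QKI shRNA 3 each stood apart from a close pair of arrays of their group (r = 0.66 and r = 0.78 for the pairs), and QKI siRNA array 3 was closest to a non-silencing siRNA array. The same held for hnRNP A1 siRNA array 3, which was not left out together with these 3 but alone. Gene-level calls of the members that turn on one of these 4 arrays are given with and without it. QKI siRNA arrays 1 and 2 were also closest to arrays of another group, those of hnRNP A1 siRNA with the same number. They were left out only 1 at a time.

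RefSeq promoter sequences (build GRCr8) were at hand for 7 of the 10 genes: Egr1, Egr2, Egr4, Fosb, Junb, Ier2 and Dusp1. Each window ran from 250 bases before the start to 50 after it, and motifs were searched on both strands. A CArG box (CC, then 6 bases of A or T, then GG) lay in Egr1, at 105 to 96 and at 83 to 74 bases before the start, and in Egr2 at 83 to 74. Of all 33469 promoters in the table, 1.64% held one. The full cyclic AMP response element TGACGTCA lay in Ier2 at 66 to 59 and in Dusp1 at 124 to 117 bases before the start, and in 1.83% of all promoters. Its shorter form TGACG, which also matches inside the full element, was found in 6 of the 7 and in 21.2% of all promoters. Neither TGANTCA, the AP-1 element, nor GCGNGGGCG, the EGR element, was found in the 7 windows, while 7.33% and 4.98% of all promoters held them. The 250 bases before the start are shown 5′ to 3′ for the 4 genes with a CArG box or a full element. All 4 belong to the 5 genes with the widest range over the arrays, described next. For Egr3, the other gene of these 5, no sequence was at hand. Whether the motifs bear on the ranges was not tested. Capitals mark the CArG boxes and the elements on either strand, so that CGTCA is TGACG read on the other strand. These matches describe letters and are not evidence of binding.
Egr1 (GRCr8 chr18:26736828-26737077, plus strand): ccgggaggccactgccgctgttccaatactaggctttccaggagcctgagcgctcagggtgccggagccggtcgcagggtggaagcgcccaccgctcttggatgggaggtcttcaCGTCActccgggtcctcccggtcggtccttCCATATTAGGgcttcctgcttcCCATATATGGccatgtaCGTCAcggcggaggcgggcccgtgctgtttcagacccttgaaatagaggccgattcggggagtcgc
Egr2 (GRCr8 chr20:21054442-21054691, minus strand): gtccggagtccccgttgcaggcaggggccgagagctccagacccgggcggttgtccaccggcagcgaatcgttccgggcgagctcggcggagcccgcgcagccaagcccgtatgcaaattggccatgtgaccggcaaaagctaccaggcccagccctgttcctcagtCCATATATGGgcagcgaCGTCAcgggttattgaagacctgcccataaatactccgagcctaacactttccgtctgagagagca
Ier2 (GRCr8 chr19:40399123-40399372, plus strand): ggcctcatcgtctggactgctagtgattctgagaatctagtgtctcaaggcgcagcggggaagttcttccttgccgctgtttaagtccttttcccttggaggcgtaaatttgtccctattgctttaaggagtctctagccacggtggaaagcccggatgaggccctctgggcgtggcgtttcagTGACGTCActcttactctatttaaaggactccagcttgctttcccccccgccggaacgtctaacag
Dusp1 (GRCr8 chr10:17184603-17184852, plus strand): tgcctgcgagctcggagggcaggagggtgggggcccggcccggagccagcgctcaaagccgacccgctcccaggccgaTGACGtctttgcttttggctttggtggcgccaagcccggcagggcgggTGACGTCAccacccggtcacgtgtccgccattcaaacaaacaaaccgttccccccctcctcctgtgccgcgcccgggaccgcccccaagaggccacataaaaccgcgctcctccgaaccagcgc

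The swings between arrays were widest for Egr1. In untreated cells its log2 intensity was 7.07, 6.34 and 8.42, and after non-silencing siRNA it was 6.99, 6.62 and 6.11. It was 10.45, 9.95 and 5.87 after QKI siRNA, and 9.76, 8.38 and 7.23 after hnRNP A1 siRNA. The non-silencing shRNA line held it at 4.51, 4.67 and 4.54, and the line labelled QKI shRNA at 9.07, 9.07 and 6.53. The control line was thus tightly low, and QKI siRNA array 3 was lower than all 3 of its controls while arrays 1 and 2 were far above them. Over all 18 arrays Egr1 spanned 5.93 log2 units.

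Egr3 was 7.88, 8.08 and 6.38 in the line labelled QKI shRNA and 4.02, 3.99 and 4.53 in the non-silencing line. After QKI siRNA it was 7.82, 5.87 and 5.0, after hnRNP A1 siRNA 5.76, 4.77 and 4.01, after non-silencing siRNA 4.43, 4.55 and 3.97, and in untreated cells 4.92, 4.51 and 5.33. All 3 arrays labelled QKI siRNA or QKI shRNA lay above all 3 arrays of the matching control, and the hnRNP A1 arrays overlapped theirs. Egr2 followed on a smaller scale, at 6.03, 4.86 and 3.69 after QKI siRNA, 4.89, 4.59 and 3.38 in the line labelled QKI shRNA and 4.63, 4.07 and 3.81 after hnRNP A1 siRNA. Its controls lay at 3.59, 3.60 and 3.33 for non-silencing siRNA, 3.39, 3.49 and 3.41 for the non-silencing line, and 3.67, 3.71 and 3.98 for untreated cells. The array labelled QKI shRNA 3 lay just below its controls for Egr2, and arrays 1 and 2 far above them. Egr4 showed no such swings, with values between 3.90 and 4.49 on all 18 arrays, close to the array medians. Detection calls were not used here, so whether Egr4 was above background is not known, and the same holds for Fosb and Arc. It also holds for the low values of Egr2 and Junb, which went down to 3.33 and 3.41.

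Dusp1 was 7.14, 6.86 and 5.09 in the line labelled QKI shRNA and 5.45, 4.02 and 4.57 in the non-silencing line, so that the array labelled QKI shRNA 3 lay below control array 1. It was 6.0, 5.48 and 5.06 after QKI siRNA, 5.59, 5.80 and 5.95 after hnRNP A1 siRNA, 5.21, 4.8 and 4.85 after non-silencing siRNA, and 4.49, 4.35 and 5.40 in untreated cells. The hnRNP A1 arrays were close together and all above both sets of controls. Ier2 was 6.65, 5.53 and 4.98 after QKI siRNA, 6.44, 5.24 and 5.63 after hnRNP A1 siRNA and 4.97, 5.35 and 5.23 after non-silencing siRNA. In the line labelled QKI shRNA it was 6.13, 5.98 and 5.25, in the non-silencing line 4.67, 5.03 and 5.12, and in untreated cells 4.84, 4.38 and 6.07. The stable lines did not overlap for Ier2, whereas the siRNA groups and the untreated cells did.

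The AP-1 subunits moved less. Fos was 6.33, 6.13 and 6.99 in the line labelled QKI shRNA and 4.82, 6.30 and 6.21 in the non-silencing line, and its lowest value of all was the first control array. Fos was 6.92, 6.32 and 6.01 after QKI siRNA, 6.39, 6.08 and 6.71 after hnRNP A1 siRNA, 6.46, 5.90 and 5.80 after non-silencing siRNA, and 5.95, 5.86 and 5.66 in untreated cells. All 3 groups labelled as knockdowns lay wholly above the untreated cells for Fos. Junb was 4.90, 4.08 and 5.04 after QKI siRNA, 4.85, 4.03 and 4.93 after hnRNP A1 siRNA and 4.05, 3.41 and 4.47 after non-silencing siRNA, with the second array lowest in each. It was 4.40, 4.55 and 4.14 in the line labelled QKI shRNA, 3.76, 4.05 and 4.13 in the non-silencing line and 4.04, 4.01 and 3.61 in untreated cells. Fosb stayed between 3.37 and 4.06 and Arc between 3.73 and 4.57 on the 18 arrays.

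**Figure D1:**
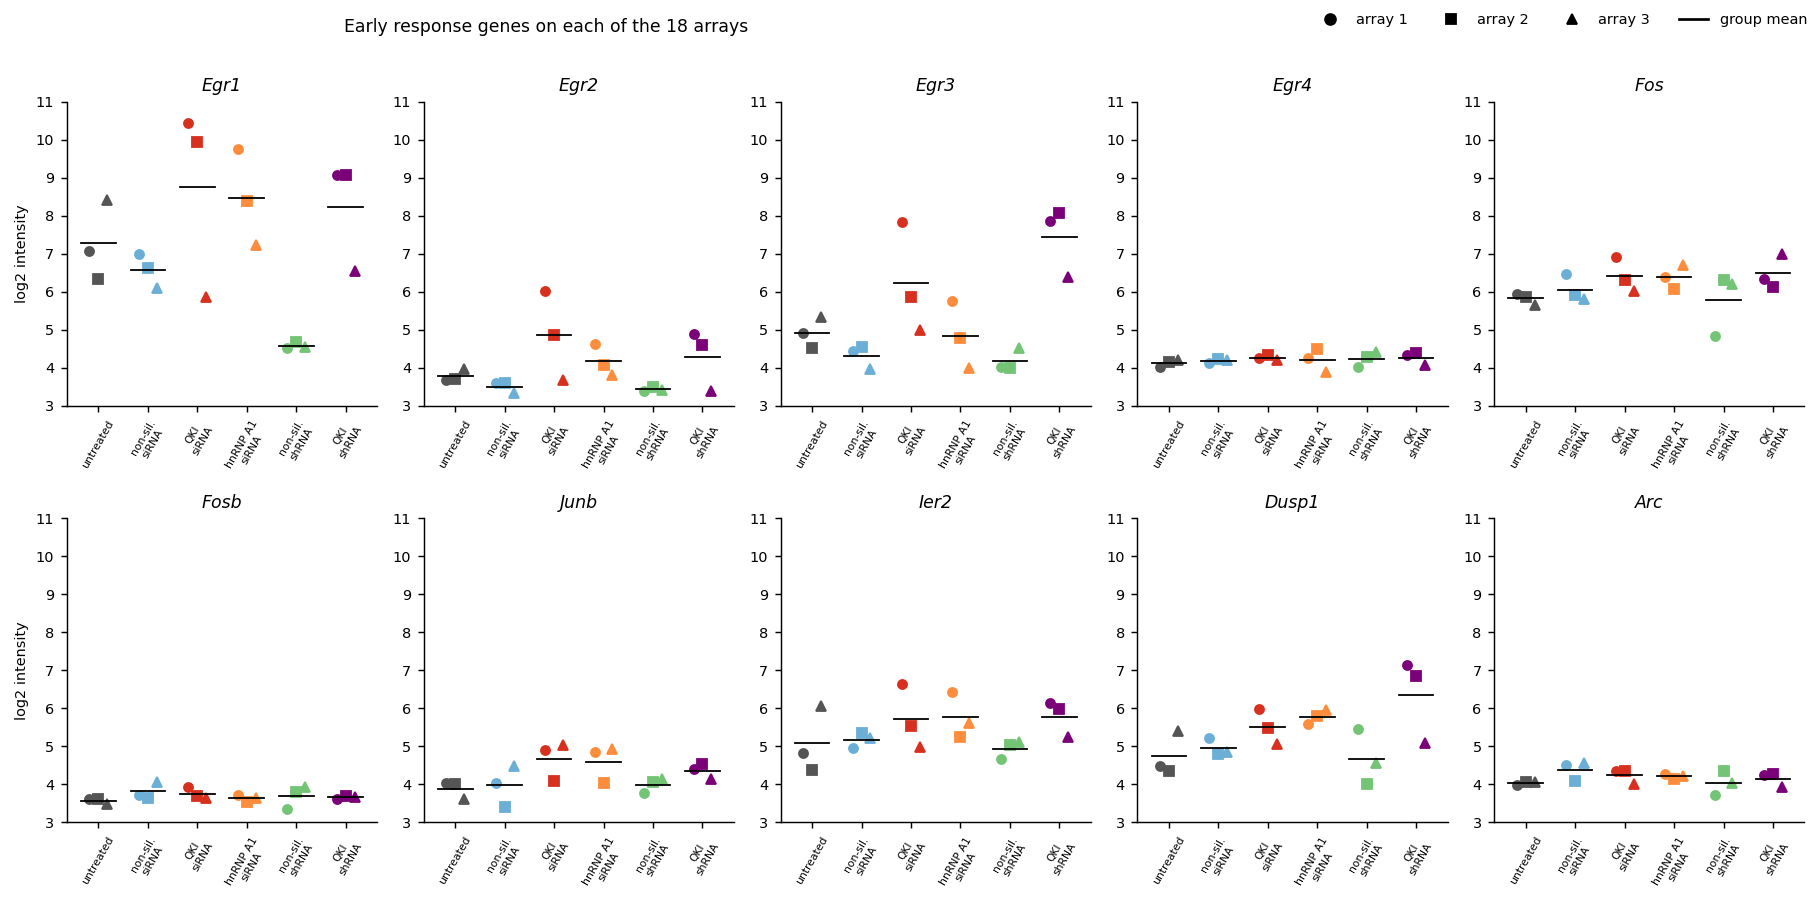
Log2 intensity (vertical axis) of each early response gene on the 18 arrays, by group, with the symbol giving the array number and the bar the group mean. Egr1 runs from 4.51 to 10.45, and Egr4, Fosb and Arc stay nearly flat.

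The stable lines compare a hairpin against QKI with one without a target, and Qki itself did not differ beyond the test between them. In the line labelled QKI shRNA, 3 of the 10 genes rose against the non-silencing line and none fell. The limma test across all clusters, with Benjamini-Hochberg adjustment and a call at an adjusted p under 0.05, called 3.38% of all clusters higher and 10.3% in either direction (639 higher and 1304 lower, or 981 and 1015 after quantile normalization). The line averaged 8.23 ± 1.46 (SD, n = 3) for Egr1 against 4.57 ± 0.09, a log2 change of 3.65 ± 0.99 (SE) or 12.6-fold, with a 95% interval of 1.55 to 5.76 and an adjusted p of 0.026. Egr3 averaged 7.44 ± 0.93 against 4.18 ± 0.31, a log2 change of 3.27 ± 0.60 or 9.61-fold (adjusted p = 0.002). Dusp1 averaged 6.36 ± 1.11 against 4.68 ± 0.72, a log2 change of 1.68 ± 0.46 or 3.21-fold (adjusted p = 0.026). Without the array labelled QKI shRNA 3 these changes were 4.50, 3.80 and 2.32, with adjusted p-values of 0.00867, 0.000661 and 0.000669. Egr3 kept its call whichever array of the 18 was left out. Egr1 lost its call without any 1 of the 3 control arrays or of QKI shRNA arrays 1 and 2 (adjusted p from 0.065 to 0.112). Dusp1 lost it without non-silencing arrays 2 or 3 or QKI shRNA arrays 1 or 2 (adjusted p from 0.0858 to 0.138), and also with these 6 arrays alone (adjusted p = 0.156), with the replicate numbers as a block in that fit (adjusted p = 0.0628) and after median centring (adjusted p = 0.0626).

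The other members did not pass in the stable lines. Their log2 changes were 0.86 for Egr2, 0.85 for Ier2, 0.70 for Fos and 0.38 for Junb, with adjusted p-values from 0.281 to 0.584. Egr4, Fosb and Arc changed by 0.03, -0.03 and 0.11, and for Egr4 the 95% interval ran from -0.28 to 0.34. In all, 9 of the 10 were above 0, beside 51.3% of all clusters, and Egr4 turned to -0.02 after median centring. The median over the 10 genes was 0.78, where the median of all clusters was 0.01. In 4 of the 10 (Egr1, Egr3, Junb and Ier2) every QKI shRNA array exceeded every control array, as did 9.14% of all clusters.

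Transient QKI siRNA gave no call among the 10, nor among all clusters (0%). At an unadjusted p under 0.05, 4 of the 10 (Egr1, Egr2, Egr3 and Junb) were higher, as were 5.01% of all clusters, and 8 were above 0, beside 58.6%. The log2 change of Egr1 was 2.19 ± 0.99 (95% interval 0.08 to 4.29, adjusted p = 0.537), that of Egr3 1.91 ± 0.60 (adjusted p = 0.394) and that of Egr2 1.35 ± 0.45 (adjusted p = 0.401). The groups did not overlap for Egr2 and Egr3, which makes 2 of 10 genes beside 7.41% of all clusters. Junb differed by 0.70 ± 0.29 (adjusted p = 0.51), Dusp1 by 0.56, Ier2 by 0.54 and Fos by 0.36. Without QKI siRNA array 3 the changes of Egr1, Egr2 and Egr3 were 3.63, 1.94 and 2.53, with adjusted p-values of 0.125, 0.122 and 0.129. With all 3 arrays that stood apart left out of the fit, the same changes had adjusted p-values of 0.0165, 0.0168 and 0.0379, an alternative chosen after seeing the data. QKI siRNA array 3, left out there, was the lowest of its group for 9 of the 10 members. Array 1 stayed in, although its mean r with its own group was -0.06, beside -0.07 for array 3. These calls thus rest on which array was dropped. The direct test of the stable against the transient effect called none of the 10, with 4.71% of all clusters called. Its difference was 1.47 ± 1.40 for Egr1, 1.35 ± 0.84 for Egr3 and 1.12 ± 0.65 for Dusp1 (adjusted p from 0.446 to 0.735).

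The hnRNP A1 siRNA likewise gave no call among the 10 against non-silencing siRNA, with 0.00529% of all clusters called. Egr1 differed by 1.89 ± 0.99 (adjusted p = 0.769), Dusp1 by 0.82 ± 0.46 (adjusted p = 0.791) and Egr2 by 0.67 ± 0.45 (adjusted p = 0.865). For these 3 genes the groups did not overlap, as for 8.69% of all clusters. At an unadjusted p under 0.05, 1 of the 10 was higher, Junb (log2 change 0.63, adjusted p = 0.706), as were 4.6% of all clusters. Egr3 differed by 0.53 ± 0.60. Without hnRNP A1 siRNA array 3 the change of Egr1 was 2.50 (adjusted p = 0.479), and none of the 10 passed against either control. Set directly against each other, the QKI and hnRNP A1 siRNA groups gave no call (0% of all clusters). This fit did not pair the arrays, although deviations of same-numbered arrays of the 2 groups correlated (0.53, 0.32 and 0.35). With the replicate numbers as a block, no cluster was called either. The differences were 1.39 for Egr3 (95% interval 0.12 to 2.65) and 0.30 for Egr1 (95% interval -1.80 to 2.40), both with an adjusted p of 1, and the intervals reach above 2 log2 units for both genes.

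**Figure D2:**
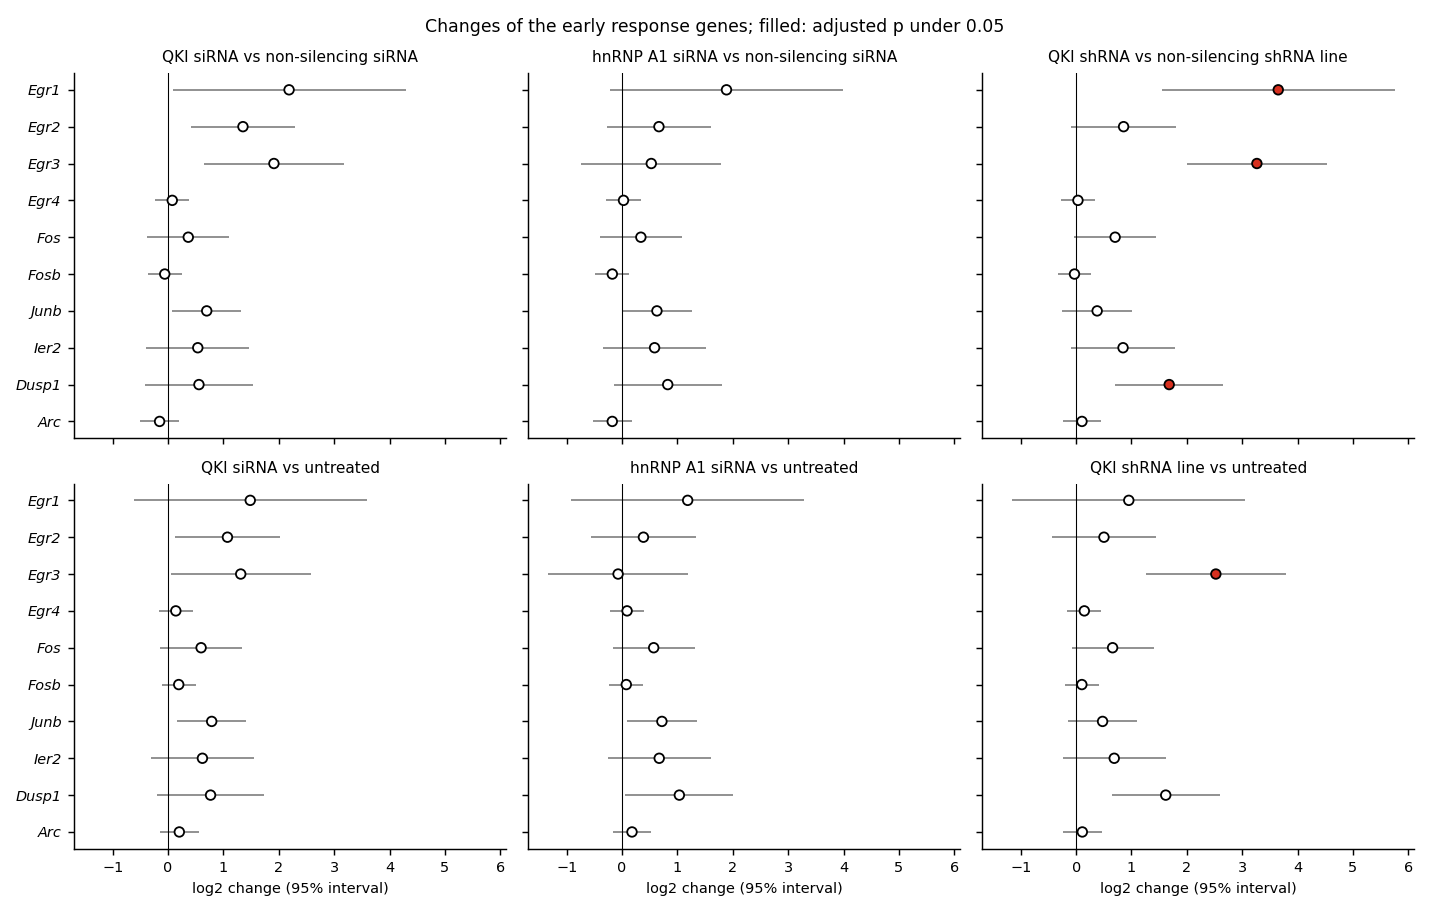
Log2 change (horizontal axis) of each early response gene in 6 comparisons, with 95% intervals from limma. Filled points passed at an adjusted p under 0.05: Egr1, Egr3 and Dusp1 between the stable lines and Egr3 in the line labelled QKI shRNA against untreated cells.

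The untreated cells are another control, and comparisons with them use the same arrays as those above. Against them the line labelled QKI shRNA was higher for Egr3 alone of the 10, by 2.52 ± 0.60 (adjusted p = 0.038), with 0.788% of all clusters called higher and 2.04% in either direction. All 10 were above 0, beside 63.3% of all clusters, and 4 (Egr3, Fos, Fosb and Junb) did not overlap, beside 9.81%. Leaving out 1 array removed this call in 11 of 18 cases, and the highest adjusted p among them was 0.195. The call was also lost after median centring (adjusted p = 0.0895), with the compared arrays alone (adjusted p = 0.1) and with the replicate block in that fit (adjusted p = 0.406). Dusp1 differed by 1.62 ± 0.46 (adjusted p = 0.093) and passed without untreated array 3 (1.94, adjusted p = 0.046) or without the array labelled QKI shRNA 3 (2.25, adjusted p = 0.00252). Egr1, at 8.23 ± 1.46 in the line labelled QKI shRNA and 7.27 ± 1.06 in untreated cells, differed by only 0.95 ± 0.99 (adjusted p = 0.854). The same gene was lower in the non-silencing shRNA line than in untreated cells by 2.70 ± 0.99, with no overlap (adjusted p = 0.174, and 0.0435 without QKI siRNA array 3). None of the 10 was called there, beside 3.26% of all clusters, and 2 (Egr1 and Egr2) lay wholly below untreated cells, beside 5.87%. On the group means of Egr1, the line labelled QKI shRNA thus lay 0.95 above and the non-silencing line 2.70 below untreated cells, and neither step passed with all arrays.

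QKI siRNA cells were above untreated cells for all 10 genes, where 69.3% of all clusters were above 0, and none of the 10 was called (0.46% of all clusters). The sign of Egr4 (0.14) turned to -0.02 after quantile normalization and after median centring. The groups did not overlap for 3 (Fos, Fosb and Junb), beside 15% of all clusters. Egr1 differed by 1.48, Egr3 by 1.31, Egr2 by 1.07 and Junb by 0.79, with adjusted p-values from 0.215 to 0.422. hnRNP A1 siRNA cells gave no call either (0.296% of all clusters), and Dusp1, at 1.03 ± 0.46 with no overlap, had an adjusted p of 0.366. It was 1 of 3 members, with Fos and Arc, whose arrays lay wholly above untreated cells, beside 13.5% of all clusters. Non-silencing siRNA differed from untreated cells by -0.70 for Egr1, -0.60 for Egr3 and 0.36 for Arc, with no call among the 10 and 0.0794% of all clusters called. Fosb and Arc lay wholly above untreated cells (15.7% of all clusters did) and Egr2 wholly below (6.97%).

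Over the 6 groups together, the limma F test passed for Egr3 (adjusted p = 0.00951), with 9.92% of all clusters passing. Egr1 had an adjusted p of 0.058 and Dusp1 one of 0.092, and the other 7 lay between 0.205 and 0.951. Egr1 passed with the replicate block (adjusted p = 0.0332), and without QKI siRNA array 3 (0.00305), the array labelled QKI shRNA 3 (0.0251), hnRNP A1 siRNA array 3 (0.0458) or untreated array 3 (0.0461). Dusp1 passed without the array labelled QKI shRNA 3 (adjusted p = 0.00454), and Egr2 without QKI siRNA array 3 (adjusted p = 0.0214). Egr1 was highest after QKI siRNA (8.76 ± 2.51), followed by hnRNP A1 siRNA (8.46 ± 1.27), the line labelled QKI shRNA, untreated cells, non-silencing siRNA (6.57 ± 0.44) and the non-silencing line. For Egr3 the order was the line labelled QKI shRNA, QKI siRNA (6.23 ± 1.45), untreated cells (4.92 ± 0.41), hnRNP A1 siRNA (4.85 ± 0.88), non-silencing siRNA (4.32 ± 0.31) and the non-silencing line. The 3 groups labelled as knockdowns took the top 3 places for Egr1, Egr2, Fos, Junb, Ier2 and Dusp1. The share of all clusters with this order is not given here, so it is not read as a trait of these genes. None of the 50 steps between neighbours in these orders passed over the 10 genes (smallest adjusted p 0.281).

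Exon-level probe sets of the same arrays show whether a gene's value rests on few of them. The 10 genes had 58 probe sets, 13 of them for Egr1. Between the stable lines 51 of the 58 were higher in the line labelled QKI shRNA, beside 50.5% of all probe sets, and 9 passed (2.08% of all probe sets were called higher and 4.95% in either direction): 6 of Egr1, both of Egr3 and 1 of Dusp1. All 13 of Egr1 were higher, by 0.97 to 5.94, and all 6 of Dusp1, by 0.86 to 2.49. After QKI siRNA 47 of the 58 were higher, beside 51.6% of all probe sets, and none passed (0%). All 13 of Egr1 and all 7 of Egr2 were higher there, and 2 of the 8 of Fosb.

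**Figure D3:**
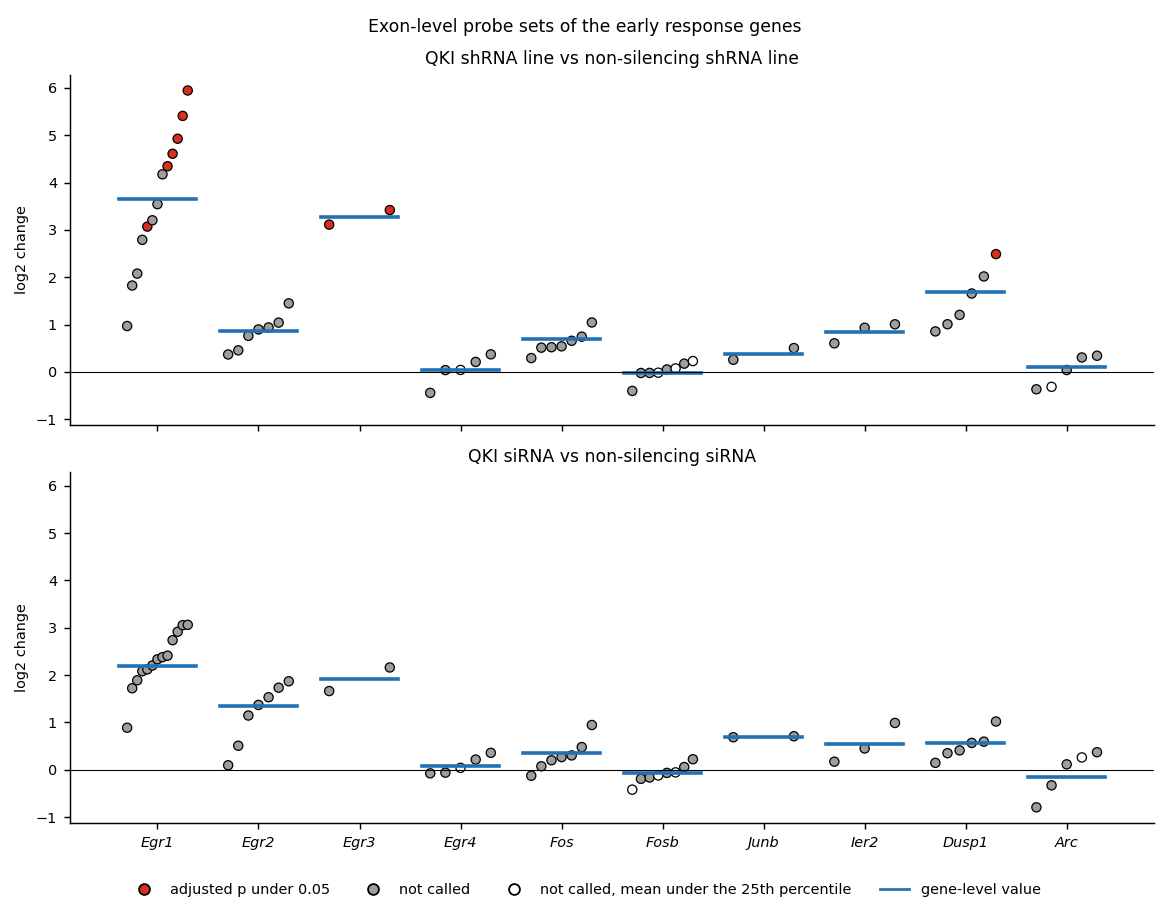
Log2 change (vertical axis) of each exon-level probe set of the 10 genes in both QKI comparisons, with the gene-level change as a line, red for an adjusted p under 0.05 and white for a mean under the 25th percentile. All Egr1 probe sets lie above 0 in both panels, from 0.97 to 5.94 between the stable lines.

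The genes with wide swings were mostly high or low on the same arrays. Dusp1 was an exception after hnRNP A1 siRNA, where it rose over arrays 1 to 3 (5.59, 5.80 and 5.95) while Egr1 fell (9.76, 8.38 and 7.23). It was also highest on array 1 of the non-silencing line, at 5.45, where Egr2 and Ier2 were lowest. Counts of highest and lowest arrays describe the members alone, since shares over all clusters are not given for them. The first QKI siRNA array was the highest of its group for 8 of the 10 genes and the third was the lowest for 9. The third QKI shRNA array was the lowest of its group for 8, and the mean over the 10 genes was 5.81, 5.76 and 4.94 on its 3 arrays, against 4.18, 4.40 and 4.49 in the control line. For QKI siRNA this mean was 6.13, 5.45 and 4.75, against 4.81, 4.62 and 4.66 for non-silencing siRNA, and for hnRNP A1 siRNA it was 5.57, 5.05 and 5.0. Over the 18 arrays, Egr1 correlated with Egr2 at r = 0.87 (rho = 0.88), and at 0.91 in deviations from the group means. The 10 pairs among Egr1, Egr2, Egr3, Ier2 and Dusp1 had r from 0.65 to 0.87, and 0.51 to 0.93 within groups. The other 35 pairs had r from -0.18 to 0.69. Fos and Dusp1 had r = 0.19, and -0.44 within groups. These correlations are descriptions, since the arrays share groups and each array contributes to every pair.

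**Figure D4:**
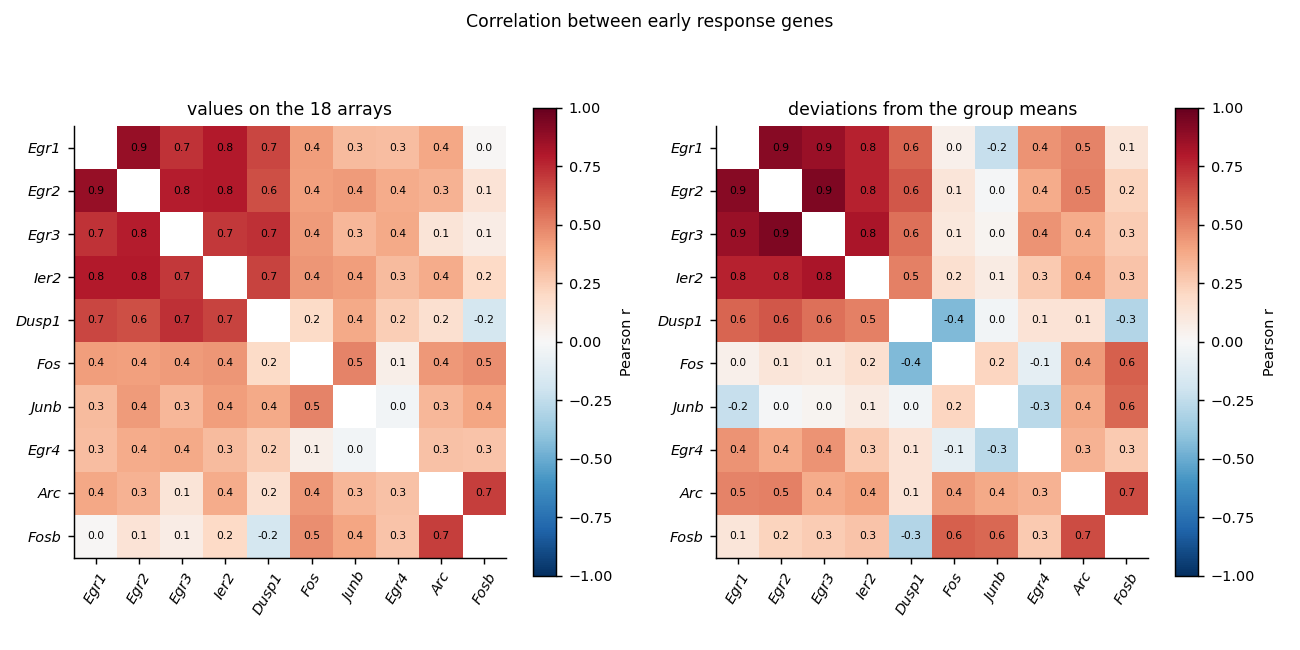
Pearson r between each pair of early response genes over the 18 arrays (left) and in deviations from the group means (right). On the left, Fosb with Arc reaches 0.69, and the other highest values lie among Egr1, Egr2, Egr3, Ier2 and Dusp1, from 0.65 to 0.87.

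Other gene lists moved with the same arrays. Regulators that ERK induces, such as the Dusp, Spry and Etv genes, were measured for 15 of 17, and their mean was 7.74, 7.24 and 6.40 on the QKI siRNA arrays and 7.60, 7.52 and 6.58 on the QKI shRNA arrays. The mean of 6 S phase genes (of 10 listed) was 8.54, 7.97 and 6.87 after QKI siRNA and 8.90, 8.77 and 7.08 in the line labelled QKI shRNA, and that of 10 G2 and M phase genes (of 12) was 8.02, 7.52 and 6.29, and 8.38, 8.32 and 7.5. Between the stable lines 2 of the 10 G2 and M phase genes rose, Cenpf by 1.52 (adjusted p = 0.00148) and Mki67 by 1.22 (adjusted p = 0.0298, and up to 0.162 without non-silencing array 2 or 3 or QKI shRNA array 2), and none of the S phase or heat shock genes passed. Of all clusters, 3.38% were called higher there, and the mean of the 10 G2 and M phase genes was 8.07 against 7.74. Against untreated cells the non-silencing line was lower for Cenpf and Mki67, by -1.51 for Cenpf (adjusted p = 0.00802) and -1.64 for Mki67 (adjusted p = 0.0182), whereas the line labelled QKI shRNA differed by 0.02 and -0.42 (adjusted p = 0.994 and 0.794). The call of Mki67 in the non-silencing line was lost without any 1 of 4 arrays (adjusted p up to 0.0723). Untreated array 3, highest of its group for 6 of the 10 members, also had the highest S phase mean of its group, at 8.94 against 7.61 and 7.48. The first array of the non-silencing shRNA line did the opposite, with an S phase mean of 8.82 against 7.59 and 7.47 and the lowest value of its group for 8 of the 10 members. Heat shock genes (4 of 8) averaged 6.53, 6.5 and 6.35 after QKI siRNA, 6.20, 6.46 and 6.30 after hnRNP A1 siRNA, 5.89, 5.84 and 6.01 after non-silencing siRNA and 6.42, 6.44 and 5.25 in the line labelled QKI shRNA. The part of the cell cycle, of heat shock and of the arrays' quality in the results for the early response genes was not tested. Schwann cell markers (4 of 6) averaged 4.64 on the array labelled QKI shRNA 3 and 4.08 and 4.09 on the other 2 arrays of that line, whose controls ranged from 4.06 to 4.19, and their part was not tested either. These markers went both ways between the stable lines, with Cdh19 changed by 1.56 (adjusted p = 0.0371) and Gjb1 by -0.67 (adjusted p = 0.0487). Oligodendrocyte markers (5 of 6) averaged 5.04 to 5.19 in the line labelled QKI shRNA and 6.24 to 6.98 in its control line, and 5.50 to 6.51 after QKI siRNA and 6.78 to 7.15 in its controls. Progenitor markers (6 of 10) averaged 7.62 to 8.40 against 8.37 to 8.62 in the stable lines, and astrocyte markers (6 of 6) 5.33 to 5.93 against 4.94 to 5.20. The astrocyte markers also went both ways there. Gfap changed by 2.31 (adjusted p = 0.0143) and Slc1a3 by 1.42 (adjusted p = 0.00989), but Aldoc by -1.44 (adjusted p = 0.0153). In these bulk samples fewer cells of a type and less RNA per cell cannot be told apart, and the part of these lineage markers was not tested.

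**Figure D5:**
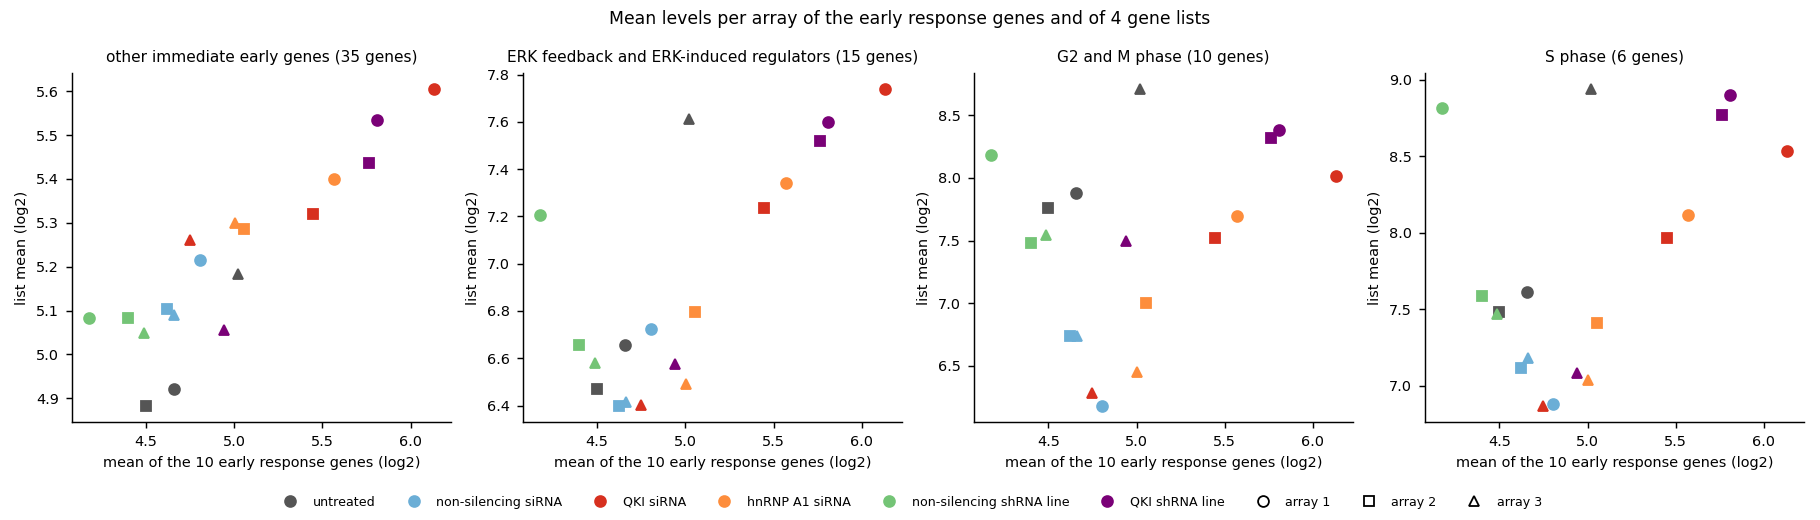
Mean log2 intensity per array of the 10 early response genes (horizontal axis) against the mean of 4 gene lists (vertical axes), with colour for the group and symbol for the array number. The third arrays labelled QKI siRNA and QKI shRNA are the lowest of their groups for the early response genes, at 4.75 and 4.94. They are also the lowest of their groups for the ERK, G2 and M phase and S phase lists. The value of 4.94 still lies above all non-silencing arrays, which range from 4.18 to 4.81. Untreated array 3 stands at 8.94 for S phase.

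Of 39 further immediate early genes, 35 were measured. Between the stable lines 3 of them rose and none fell, beside 3.38% of all clusters called higher. The list median was 0.17, and that of all clusters 0.01. Sik1, which encodes a kinase that restrains CREB coactivators, was 7.71, 7.59 and 5.89 in the line labelled QKI shRNA and 5.03, 4.98 and 5.02 in the control line, a change of 2.05 ± 0.38 (adjusted p = 0.00207). Gadd45g, a growth arrest and stress sensor gene, was 6.62, 6.11 and 5.56 against 4.12, 4.29 and 4.14, a change of 1.92 ± 0.23 (adjusted p = 7.42e-05). Ier5 was 6.70, 6.63 and 6.47 against 5.72, 6.09 and 5.87, a change of 0.71 ± 0.15 (adjusted p = 0.00502). For all 3 the lines did not overlap, beside 9.14% of all clusters wholly higher, and each call held without any 1 of the 18 arrays. Gadd45g and Ier5 were also higher than in untreated cells, by 1.68 (adjusted p = 0.00112) and 0.63 (adjusted p = 0.038), beside 0.788% of all clusters called higher. The call of Ier5 against untreated cells was lost without any 1 of 7 arrays, with adjusted p-values up to 0.197. Gadd45g was higher after QKI siRNA than in untreated cells by 1.16 (adjusted p = 0.0414, with 0.46% of all clusters called), a call lost without any 1 of 12 arrays. After hnRNP A1 siRNA 1 gene of this list rose against untreated cells, the nuclear receptor gene Nr4a2, at 6.20, 5.92 and 6.75 against 4.8, 4.49 and 5.15, by 1.48 ± 0.24 (adjusted p = 0.0154, with 0.296% of all clusters called). It lost the call without any 1 of 3 arrays (untreated 1 or 2, or hnRNP A1 siRNA 1), with adjusted p-values up to 0.101.

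Of the ERK-induced regulators 1 of 15 rose between the stable lines, beside 3.38% of all clusters called higher, with a list median of 0.24. It was the ETS transcription factor gene Etv1, at 8.68, 8.61 and 9.07 against 7.24, 6.74 and 6.6, a change of 1.93 ± 0.29 (adjusted p = 0.00041), and it did not fall on array 3. It was higher than in untreated cells by 1.71 (adjusted p = 0.00486). Nab2, whose product binds Egr proteins and represses their activity, was 7.62, 7.63 and 6.74 in the line labelled QKI shRNA and 6.05, 5.62 and 5.59 in the control line, a change of 1.58 ± 0.28 (adjusted p = 0.00172). Of 3 measured SRF, ternary complex and CREB factor genes (of 8), Elk4, a partner of SRF, rose by 0.93 ± 0.22 (adjusted p = 0.0117), a call lost without non-silencing arrays 2 or 3. None of the 5 measured genes of the ERK cascade itself (of 12) passed in any of the 10 comparisons, nor did the 2 measured stress kinase phosphatase genes (of 3). These lists were drawn up with earlier results of these data known and describe the same arrays, so they lend no independent weight to the members.

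Among 10849 other symbols, the genes whose levels most resembled the mean profile of the members over the 18 arrays were Tuba4a (r = 0.93, rho = 0.92), Adamts1 (r = 0.88), Sik1 (r = 0.86), Kiaa1671 (r = 0.85) and Cdkn1a (r = 0.85). Tuba4a, an alpha-tubulin gene, was 7.81, 7.98 and 6.36 in the line labelled QKI shRNA and 4.66, 5.02 and 5.48 in the control line, and 7.25, 7.20 and 6.02 after QKI siRNA against 5.70, 5.48 and 5.36. The third arrays of both QKI groups were again the lowest of their group. Adamts1, a secreted metalloprotease gene, was 7.37, 6.84 and 4.73 after QKI siRNA and 4.97, 4.46 and 4.8 after non-silencing siRNA, so that its array 3 was within the control range. Cdkn1a, an inhibitor of cyclin-dependent kinases, was 6.89, 5.54 and 5.18 after QKI siRNA and 4.26, 4.09 and 4.16 in its controls. In deviations from the group means the 5 genes had r from 0.58 to 0.89 with the member profile. They were picked for this likeness, so no test of it is given.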

How the data were processed

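Total RNA was hybridised to rat exon arrays from Affymetrix after Trizol and RNeasy extraction and sense-strand labelling with ribosomal RNA removal, per the labels' protocols. The authors deposited log2 intensities for 18 arrays, each at the gene level (18901 transcript clusters) and the exon level (204586 probe sets). RMA and Partek appear in the submitters' processing notes. For their versions and the genome build, the sources used here give nothing, and detection calls were not used. Intensities have no read depth, and the number of arrays limits precision.

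Probe annotation gave the symbols, updated through RefSeq names (GRCr8): 13327 clusters had 1 symbol, 620 several and 4954 none, and 39 were renamed. The model in limma 3.58.1 (with R 4.3.3) held a term for each of the 6 groups over the 18 arrays, and had 12 residual and 3.57 prior degrees of freedom. Its tests were two-sided, with Benjamini-Hochberg adjustment over all clusters or probe sets and a call at an adjusted p under 0.05. ± after a change is the standard error and after a mean the SD. The step was tested on simulated data. Of 67 genes changed 4-fold, 91% were recovered between the stable lines and 95.5% for QKI siRNA. These shares fell to 68.7% and 44.8% at 2-fold and to 19.7% and 12.1% of 66 genes at 1.5-fold. Both runs gave each gene 1 mean and 1 spread for all 6 groups before the changes were added. The gap between the 2 comparisons thus comes from the random draws and does not describe these groups. The rates hold for the simulated data alone. In the measured data Egr1 averaged 8.76 ± 2.51 after QKI siRNA and 6.57 ± 0.44 after non-silencing siRNA. That change did not pass (adjusted p = 0.537 in limma). The lack of calls after QKI siRNA is thus not evidence that changes of 4-fold were absent.

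Named genes are the members, Qki and Hnrnpa1, up to 3 called genes per list and comparison by size of change, and the 5 symbols most like the members' mean profile. The members, lists and tests were chosen with earlier results of these data known. Replicate numbers were taken from the sample titles. Deviations of same-numbered arrays correlated above 0.1 in all 3 pairs for the stable lines (0.25, 0.14 and 0.15) and for QKI against hnRNP A1 siRNA (0.53, 0.32 and 0.35). The same held for QKI siRNA with the line labelled QKI shRNA (0.34, 0.16 and 0.18) and with the non-silencing line (0.45, 0.14 and 0.24). It did not hold for the other pairs of groups that were checked. Alternatives were other normalizations, a low-value filter, an intensity trend, array weights, the replicate block, the compared arrays alone, exon-level means and leaving out arrays. Figures were drawn with matplotlib 3.10.9 and motifs searched in Python 3.11.15.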

Additional observations from a re-analysis of the deposited data

Results flagged for a closer look

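The test of the stable against the transient QKI effect (QKI shRNA line minus its control, minus QKI siRNA minus its control) passed for 5 genes of the response, cell cycle and heat shock lists, and 4.71% of all clusters passed it. Gadd45g and Ier5 were among 35 measured immediate early genes, Etv1 among 15 ERK-induced regulators, and Cenpf and Mki67 among 10 G2 and M phase genes. The other lists gave no call, so the count of 5 is not read as an excess over that share. Gadd45g differed by 1.65 (adjusted p = 0.0101 in limma), and the call held without any 1 of the 18 arrays. Etv1 differed by 1.6 (adjusted p = 0.0356), and the adjusted p was up to 0.0907 without 1 array. Ier5 differed by 0.77 (adjusted p = 0.0464), with an adjusted p of up to 0.121 without 1 array. The mitotic genes Cenpf and Mki67 differed by 1.88 (adjusted p = 0.0102) and 1.78 (adjusted p = 0.0461), and Mki67 had an adjusted p of up to 0.118 without 1 array. Their list did not share this direction. The mean of the 10 measured G2 and M phase genes was 8.07 against 7.74 in the stable lines, a smaller gap than the 7.27 against 6.55 for QKI siRNA. Cenpf and Mki67 changed by -0.35 and -0.56 after QKI siRNA against its control, and neither passed. In all 5 the difference was the higher one between the stable lines. Against untreated cells, Cenpf and Mki67 differed by 0.02 and -0.42 in the line labelled QKI shRNA (adjusted p = 0.994 and 0.794), by -1.51 and -1.64 in the non-silencing line (adjusted p = 0.00802 and 0.0182), by -2.05 and -1.97 after non-silencing siRNA (adjusted p = 0.00693 and 0.0478) and by -2.40 and -2.53 after QKI siRNA (adjusted p = 0.00137 and 0.00549). Without 1 array, the adjusted p of Mki67 against untreated cells reached 0.172 for non-silencing siRNA and 0.0723 for the non-silencing line, and that of Cenpf reached 0.0554 for non-silencing siRNA. Qki did not differ beyond the test between the stable lines (-0.25, adjusted p = 0.656).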

How the results depend on the processing

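Of 2900 member changes under an alternative, 2732 kept their direction and their side of the threshold, 26 lost a call, 48 gained one, and 94 uncalled ones changed sign. No called change reversed. Counts of called members follow, and where an alternative is not named it left the count within 1.5 times of the main one. Array weights gave 3 called for QKI siRNA and 5 for the line labelled QKI shRNA against their non-silencing controls, 1 for hnRNP A1 siRNA, and against untreated cells 1 for the non-silencing line, 8 for QKI siRNA, 5 for the line labelled QKI shRNA and 4 for hnRNP A1 siRNA, with 2 for the stable minus the transient effect. Weights moved all clusters too, from 0 to 4134 called for QKI siRNA against its control. With the compared arrays alone, the non-silencing line against untreated cells gave 1 and the line labelled QKI shRNA against untreated cells 0, the latter also under median centring and under the replicate block with the compared arrays alone. The replicate block over all 18 arrays changed only the F test, from 1 to 2 genes (Egr1, adjusted p = 0.0332), and moved no other count of members.

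Leaving out 2 arrays that stood apart (untreated 3 and QKI shRNA 3), chosen after seeing the data, gave 2 called for the line labelled QKI shRNA and 1 for hnRNP A1 siRNA against untreated cells and 1 for the stable minus the transient effect. Leaving out QKI siRNA 3 as well, also chosen after seeing the data, gave 3 for QKI siRNA and 5 for the line labelled QKI shRNA against their controls, and against untreated cells 1 for the non-silencing line, 5 for QKI siRNA, 5 for the line labelled QKI shRNA and 1 for hnRNP A1 siRNA. With 1 array left out at a time, the counts ranged from 1 to 3 between the stable lines, from 0 to 2 for the line labelled QKI shRNA and from 0 to 1 for the non-silencing line against untreated cells, from 1 to 3 for the F test, and from 3 to 18 for exon-level probe sets (9 with all arrays). Where a group was left with fewer arrays, the spread was still pooled over all groups, with less weight on that group. Over all clusters, calls between the stable lines were 1943 in the main setting, 1275 with the compared arrays alone and 4832 with weights. For QKI siRNA against untreated cells they were 87, and 213 after quantile normalization, 29 after median centring, 152 with the replicate block, 5 with the compared arrays alone and 910 without the 3 arrays. The median change of all clusters in that comparison was 0.12, and 0.01 after quantile normalization and -0.04 after median centring, and none of its members was called under either scaling. The causes of these shifts were not tested.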
